A study of Homo sapiens with 6 samples.

Results

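The genes described here encode MAP3 kinases other than TAK1, the enzyme encoded by MAP3K7. They were chosen by symbol, and the 10 members are MAP3K1, MAP3K2, MAP3K3, MAP3K4, MAP3K5, MAP3K6, MAP3K8, MAP3K11, MAP3K13 and MAP3K14, each matching 1 of the 58735 genes in the count table. RD cells, an established line of embryonal rhabdomyosarcoma, were transduced with lentivirus that expressed either a scrambled shRNA (3 samples) or an shRNA against TAK1 (3 samples), and poly(A) RNA was sequenced. Both groups therefore carried a lentiviral shRNA construct, and a single TAK1 hairpin was used, so that any effect on other targets cannot be told apart from that of TAK1 loss. Total counts per sample were 29125436, 31886885 and 31334733 with scrambled shRNA, and 28839898, 34469323 and 32710522 with TAK1 shRNA.

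MAP3 kinases stand at the head of the MAP kinase cascades: they phosphorylate MAP2 kinases, which in turn phosphorylate JNK, p38 or ERK kinases. Members of the family answer to different signals, among them growth factors, cytokines and oxidative stress, but several converge on the same MAP2 kinases as TAK1 does. NIK, encoded by MAP3K14, instead feeds the non-canonical NF-κB pathway, whereas TAK1 feeds the canonical one through the IKK complex.

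The members share a kinase domain, and the stretch of coding sequence for its catalytic loop, which holds the aspartate required for phosphate transfer, is shown for TAK1 and for the members on which the results turn. The sequences were read 5′ to 3′ on the coding strand from GENCODE transcripts on GRCh38, and capitals mark bases identical to MAP3K7 at the same position.
MAP3K7: CACAGGGACCTGAAACCACCAAAC
MAP3K3: CACcGGGACaTtAAgggAgCcAAC
MAP3K1: CACAGaGAtgTcAAAggtgCcAAt
MAP3K11: CACcGtGAtCTcAAgtCcaacAAC
MAP3K14: CAtgGGGACgTcAAAgCtgacAAC
MAP3K8: CAtcatGAtaTtAAACCtagcAAC
Of these 24 bases, MAP3K3 shared 16 with MAP3K7, MAP3K14 shared 15, MAP3K1 and MAP3K11 shared 14, and MAP3K8 shared 13. Over whole canonical transcripts, the longest exact stretch that a member had in common with MAP3K7 or any other MAP3 kinase examined was 24 bases, between MAP3K11 and MAP3K10. No member therefore held a stretch as long as a 75-base read in common with another kinase of the family. For 6 members, such stretches were shared with a gene that overlaps them on the opposite strand, and for no other gene of the annotation.

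RD cells carried the muscle lineage transcripts that their label implies. Of 11 rhabdomyosarcoma markers measured, MYOD1 reached a mean of 263 CPM with scrambled shRNA (counts relative to the size of the library, scaled by the trimmed mean of M-values), MYOG 141, DES 340 and CHRNA1 921, whereas MYF5 had no counts. The summed level of these markers was 3114, 3110 and 3113 CPM with scrambled shRNA and 3150, 3019 and 2935 CPM with TAK1 shRNA. Within this sum single markers differed in both directions: 3 of the 10 tested were called upregulated (CHRNG, MYOD1 and MYOG, with log2 fold changes of 0.47, 0.37 and 0.27) and 1 downregulated (CHRNA1, -0.40). Of all genes tested, 11.8% were called upregulated and 11.3% downregulated. MYOG was at 0.24 and not called without scrambled replicate 1 or without TAK1 replicate 1. CDH15 was called upregulated only without TAK1 replicate 3 (0.27) and with library size alone (0.28). The epithelial marker CDH1, the endothelial marker CDH5 and the T-cell marker CD3E had 0 counts in every sample, while other markers of these lists had low counts, such as EPCAM with 2 to 15 and CD14 with 5 to 14 per sample. The summed level of 6 epithelial markers was 56.6, 52.5 and 59.8 CPM against 25.5, 26.6 and 28.1 CPM, almost wholly from KRT18, the only one tested. KRT18 was called downregulated, with a log2 fold change of -1.09 (adjusted p = 5.2e-12 by edgeR), and kept this call in all 14 alternatives. The part of KRT18 in the members' values was not tested. Of 5 endothelial markers only TEK was tested, at 3.11 ± 0.471 against 2.20 ± 0.508 CPM (SD, n = 3). Its groups did not overlap and its log2 fold change of -0.49 (adjusted p = 0.0757 by edgeR) was not called, but it was called downregulated without TAK1 replicate 2 (-0.66, adjusted p = 0.0265) and with the replicate block (-0.50, adjusted p = 0.0455), and it was -0.33 (adjusted p = 0.275) without TAK1 replicate 1. None of 6 leukocyte markers was tested.

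The targeted gene was examined first. MAP3K7 (ENSG00000135341.19, chr6:90513573-90587086, minus strand) stood at 77.9, 76.5 and 77.6 CPM in the scrambled shRNA samples and at 30.5, 33.6 and 29.9 CPM in the TAK1 shRNA samples. Every TAK1 shRNA sample lay far below every control. The log2 fold change was -1.30 ± 0.0615 (SE), or 0.406 of the control level, and the quasi-likelihood test of edgeR gave an adjusted p (Benjamini-Hochberg, over all genes tested) of 4.45e-14. In these bulk samples, fewer cells of a type and less RNA per cell cannot be told apart.

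Of the 10 members, 9 passed the count filter and were tested. A gene was called when its adjusted p was under 0.05 and its log2 fold change was 0.25 or more in either direction. By this rule edgeR called 0 members upregulated, where 11.8% of all 15935 genes tested were called upregulated. It called 1 member downregulated, MAP3K3, where 11.3% of all genes tested were called downregulated. At an unadjusted p under 0.05, edgeR found 2 members higher and 1 lower, where 21.1% of all genes tested were higher and 20.6% lower, while DESeq2 and limma-voom each found 1 higher and 1 lower, and after adjustment both called 0 upregulated and 1 downregulated. The median log2 fold change over the 9 members was -0.06, compared with 0.02 over all genes tested. It was -0.02 without scrambled replicate 1, -0.03 without TAK1 replicate 1, -0.10 without scrambled replicate 3 or without TAK1 replicate 3, and -0.01 with library size alone.

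**Figure D1:**
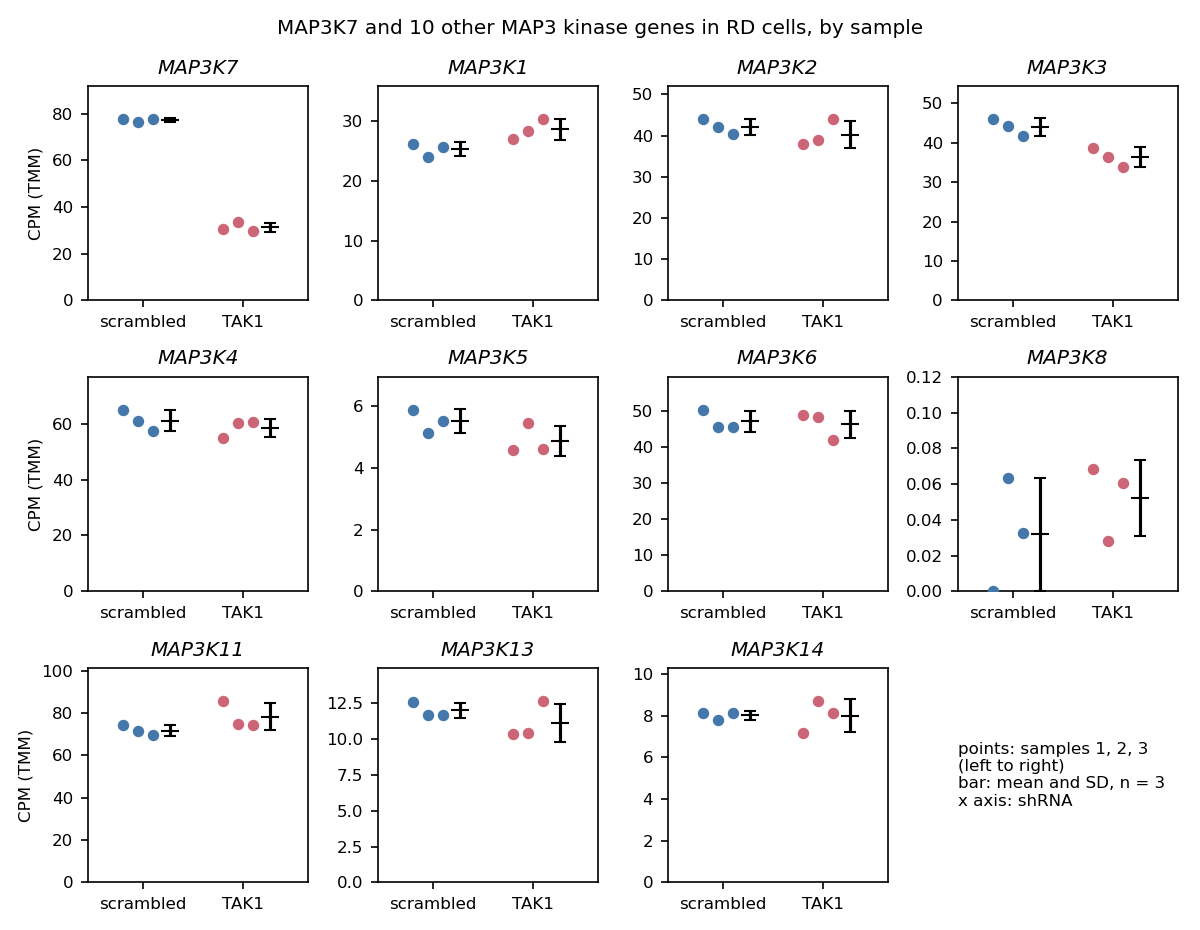
Level of MAP3K7 and the 10 members in each sample, in CPM on axes that start at 0, with samples 1, 2 and 3 from left to right in each group and a bar for the mean and SD (n = 3). MAP3K7 separates widely, MAP3K3 and MAP3K1 separate narrowly, and the other members overlap between the groups.

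The MEKK kinases are encoded by MAP3K1 to MAP3K4. They included the 2 of 9 tested members whose values did not overlap between the groups, which held for 43.9% of all genes tested. MAP3K3 (ENSG00000198909.8, chr17:63622415-63696305, plus strand) encodes MEKK3, an activator of the ERK5 and p38 cascades. It stood at 46.1, 44.2 and 41.7 CPM with scrambled shRNA and at 38.7, 36.4 and 33.8 CPM with TAK1 shRNA. The lowest control was above the highest knockdown sample, by a margin little larger than the SD of either group. The mean of 44.0 ± 2.21 CPM in the controls fell to 36.3 ± 2.49 CPM (SD, n = 3). The log2 fold change was -0.28 ± 0.0679 (SE; 95% interval -0.42 to -0.14) and the adjusted p was 0.00243 by edgeR. This estimate was close to the fold threshold. The call was lost without scrambled replicate 1 (log2 fold change -0.24, adjusted p = 0.0206 by edgeR), without TAK1 replicate 3 (-0.24, adjusted p = 0.0153) and when samples were scaled by library size alone (-0.23, adjusted p = 0.0120), each time because the estimate came to lie inside the threshold while its adjusted p stayed under 0.05.

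Part of MAP3K3 lies opposite exons of LIMD2, a gene on the other strand. Of the 75-base stretches of the canonical MAP3K3 transcript, 7.35% also occur in LIMD2 transcripts. LIMD2 itself stood at 73.4, 71.4 and 68.0 CPM against 69.8, 59.2 and 59.7 CPM. Its groups overlapped, but its log2 fold change of -0.17 (95% interval -0.30 to -0.04, adjusted p = 0.0353 by edgeR) had the same direction as that of MAP3K3, under the fold threshold, and without TAK1 replicate 1 it was -0.25 and called. Whether counting used the strand is not given in the sources used here, and the part of LIMD2 reads in the MAP3K3 difference was not tested.

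MAP3K1 (ENSG00000095015.6, chr5:56815549-56896152, plus strand) encodes MEKK1, a kinase of the JNK cascade that also carries a ubiquitin ligase domain. Its level was 26.2, 23.97 and 25.7 CPM with scrambled shRNA and 27.0, 28.4 and 30.4 CPM with TAK1 shRNA. All TAK1 shRNA samples were above all controls, but the nearest samples of the groups were less than 1 SD apart. The log2 fold change of 0.18 ± 0.0741 (SE; 95% interval 0.03 to 0.33) was under the fold threshold, with an adjusted p of 0.0646 by edgeR. This p depended on the setting. It was 0.0420 with upper-quartile scaling, 0.0191 with library size alone, 0.0383 with the replicate block and 0.0330 without TAK1 replicate 1. Without scrambled replicate 2 it was 0.267. The estimate stayed between 0.12 and 0.23 over 14 alternatives, so the fold threshold was not reached in any of them.

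MAP3K2, encoding MEKK2, which like MEKK3 acts upstream of ERK5, stood at 44.1, 42.0 and 40.3 CPM against 37.9, 38.8 and 43.9 CPM. TAK1 replicate 3 was as high as the controls, and the 95% interval of the log2 fold change ran from -0.21 to 0.08. MAP3K4, encoding MEKK4, which is bound and activated by GADD45 proteins, stood at 65.0, 60.7 and 57.5 CPM against 54.7, 60.1 and 60.5 CPM. These values also overlapped, with an interval from -0.19 to 0.06. Over the 4 MEKK genes, 1 was downregulated and 3 were not called, where 11.3% of all genes tested were downregulated. The number downregulated was 0 with library size alone, without scrambled replicate 1 and without TAK1 replicate 3. The summed level of the 4 MEKK genes was 181, 171 and 165 CPM with scrambled shRNA and 158, 164 and 169 CPM with TAK1 shRNA. The sums of the groups overlapped.

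MAP3K5 and MAP3K6 encode ASK1 and ASK2, which respond to oxidative stress and act upstream of JNK and p38. MAP3K5 stood at 5.87, 5.11 and 5.51 CPM with scrambled shRNA and at 4.58, 5.44 and 4.60 CPM with TAK1 shRNA. TAK1 replicate 2 lay among the controls. At this level, with 134 to 192 counts per sample, the interval of its log2 fold change was wide, from -0.46 to 0.12 (adjusted p = 0.392 by edgeR), and a decrease of the size seen for MAP3K3 lies within it. MAP3K6 stood at 50.3, 45.4 and 45.5 CPM against 48.7, 48.2 and 41.9 CPM. The groups were interleaved, with an interval from -0.17 to 0.12 (adjusted p = 0.827 by edgeR).

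MAP3K11 (ENSG00000173327.8, chr11:65597756-65615382, minus strand) encodes MLK3, a mixed-lineage kinase that is activated by Rac and Cdc42 and signals to JNK. It stood at 74.2, 71.5 and 69.4 CPM with scrambled shRNA and at 85.8, 75.02 and 74.1 CPM with TAK1 shRNA. TAK1 replicate 1 was set apart from the rest, while TAK1 replicate 3 was level with scrambled replicate 1. The log2 fold change was 0.13 ± 0.0596 (SE), with an adjusted p of 0.109 by edgeR, and it was 0.06 without TAK1 replicate 1. The adjusted p was 0.0255 with library size alone (0.17) and 0.0411 with the replicate block (0.12), both under the fold threshold. MAP3K13, encoding the leucine zipper kinase LZK, stood at 12.6, 11.7 and 11.7 CPM against 10.3, 10.4 and 12.7 CPM. Here TAK1 replicate 3 exceeded every control, and the interval ran from -0.32 to 0.11. MAP3K13 lies opposite TMEM41A, with which 6.41% of its 75-base stretches were shared.

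The remaining members act mainly on NF-κB and ERK signaling. MAP3K14, encoding NIK, stood at 8.12, 7.78 and 8.14 CPM with scrambled shRNA and at 7.18, 8.72 and 8.12 CPM with TAK1 shRNA. The group means were both 8.01 CPM, with SDs of 0.204 and 0.775, and the interval of the log2 fold change was -0.24 to 0.24. Of the 75-base stretches of MAP3K14, 13.1% were shared with its antisense neighbor MAP3K14-AS1, which had 1 to 18 counts per sample. The part of MAP3K14-AS1 reads in the values of MAP3K14 was not tested. MAP3K8, encoding TPL2, which activates the ERK cascade downstream of inflammatory receptors, had 0, 2 and 1 counts with scrambled shRNA and 2, 1 and 2 counts with TAK1 shRNA. These counts were below the floor of 3 counts per library, which corresponds to between 0.0849 and 0.106 CPM in the different libraries, and no change in MAP3K8 was detectable at this depth.

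**Figure D2:**
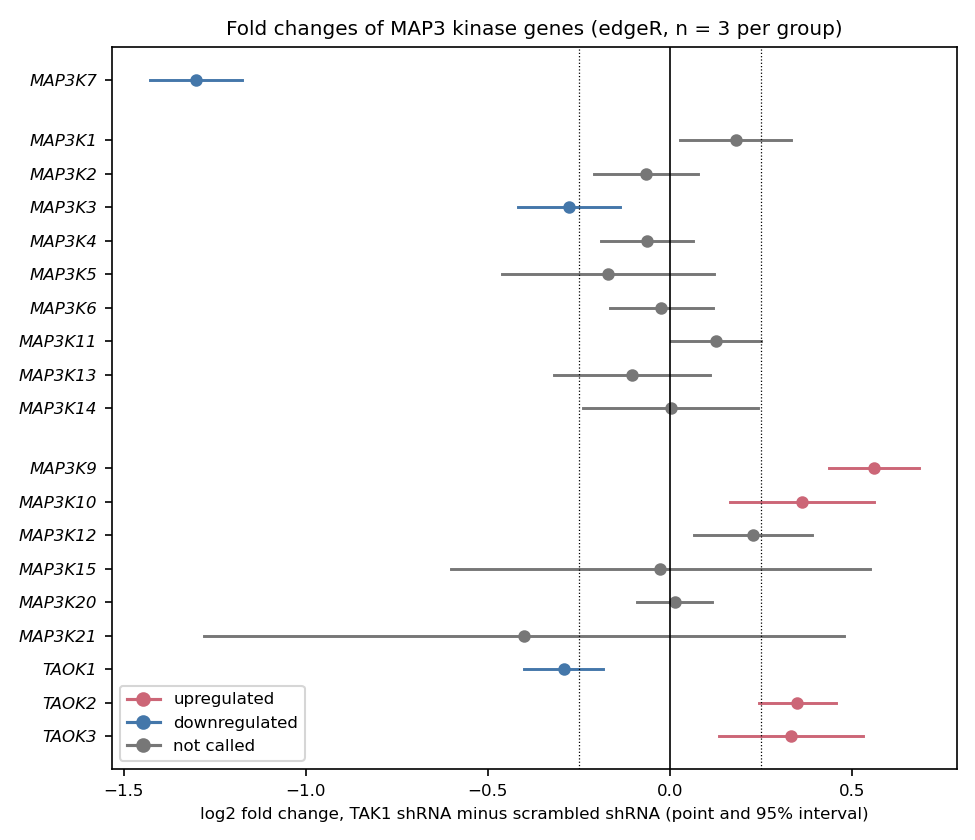
Log2 fold change (TAK1 shRNA minus scrambled shRNA) with its 95% interval for MAP3K7, the 9 tested members and the 9 tested genes of the rest of the family, with dotted lines at the threshold of 0.25 in either direction. Among the members, the intervals of MAP3K3, MAP3K1 and MAP3K11 leave out 0. In the rest of the family, those of MAP3K9, MAP3K10, MAP3K12, TAOK2 and TAOK3 lie above 0 and that of TAOK1 lies below 0.

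With TAK1 shRNA, the summed level of the 10 members was 315, 312 and 310 CPM, compared with 332, 312 and 305 CPM in the controls, and the groups overlapped. Of the 9 tested members, 3 had a higher and 6 a lower estimate with TAK1 shRNA. Under other scalings this split moved to 2 and 7 or to 4 and 5, because the estimates of MAP3K6 and MAP3K14 lay near 0 and changed sign. The absolute log2 fold change had a median of 0.10 over the tested members and of 0.19 over all genes tested, or 0.16 over the 7205 genes whose control mean lay in the range of the tested members, of which 15.6% were upregulated and 13.4% downregulated. It was under 0.25 for 8 of the 9 tested members and for 60.7% of all genes tested.

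**Figure D3:**
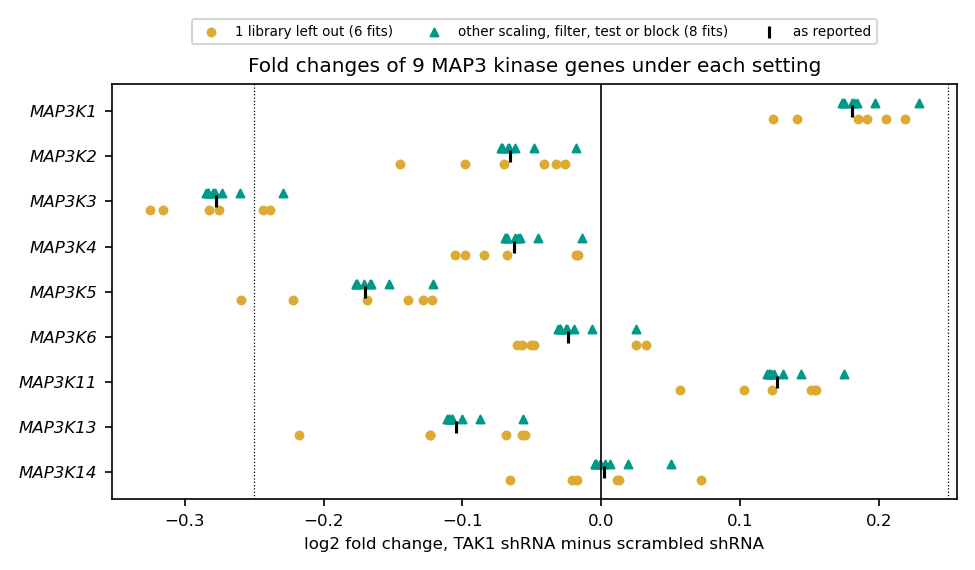
Log2 fold change of the 9 tested members as reported (black bar), with another scaling, filter, test or replicate block (green triangles, 8 fits) and without each library in turn (yellow points, 6 fits). MAP3K3 moves between -0.33 and -0.23 and crosses the dotted line at -0.25, and MAP3K6 and MAP3K14 lie on both sides of 0.

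Levels of different genes were compared as CPM per kilobase of annotated exons. In the scrambled shRNA samples, the member with the highest level was MAP3K6, at 8.54 ± 0.509 CPM per kilobase (SD, n = 3), followed by MAP3K4 at 8.12 ± 0.499. The values of this pair overlapped. MAP3K3 came next at 7.20 ± 0.361 and overlapped with MAP3K11 at 6.79 ± 0.229. MAP3K2 at 3.63 ± 0.165 and MAP3K1 at 3.27 ± 0.151 CPM per kilobase formed a middle tier without overlap between them. The lowest detected levels were those of MAP3K14 at 1.41 ± 0.0360, MAP3K5 at 0.962 ± 0.0666 and MAP3K13 at 0.951 ± 0.0417 CPM per kilobase, of which MAP3K5 and MAP3K13 overlapped. The order depended on the length used: per kilobase of the longest annotated transcript, MAP3K11 came first among the members at 12.8 CPM per kilobase, ahead of MAP3K4 at 11.1 and MAP3K6 at 10.6. MAP3K13 at 1.22 then also stood above MAP3K5 at 0.996.

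On the per-kilobase scale of all exons, MAP3K7 ranked 2 or 3 among the 11 genes in each control, at a mean level of 8.11 ± 0.0780, and ranked 6 or 7 in each TAK1 shRNA sample, at 3.29 ± 0.210. MAP3K7 made up 16.0, 16.6 and 17.1% of the summed per-kilobase level of the 11 genes in the controls. After the knockdown it made up 7.37, 8.08 and 7.42%. These ranks and shares also rested on the length used: per kilobase of the longest transcript, MAP3K7 ranked 1 in each control and 5 in each TAK1 shRNA sample, and its share was 21.5, 22.3 and 22.9% against 10.1, 11.2 and 10.3%. The summed per-kilobase level of the 10 members was 43.0, 40.2 and 39.4 in the controls and 40.2, 40.1 and 39.2 with TAK1 shRNA, so the drop in the share of MAP3K7 came with no separation in the members' sum. With TAK1 shRNA, MAP3K11 at 7.42 ± 0.617 stood above MAP3K3 at 5.95 ± 0.407 CPM per kilobase without overlap. Per kilobase of the longest transcript, MAP3K11 at 12.8 already stood above MAP3K3 at 9.14 in the controls.

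**Figure D4:**
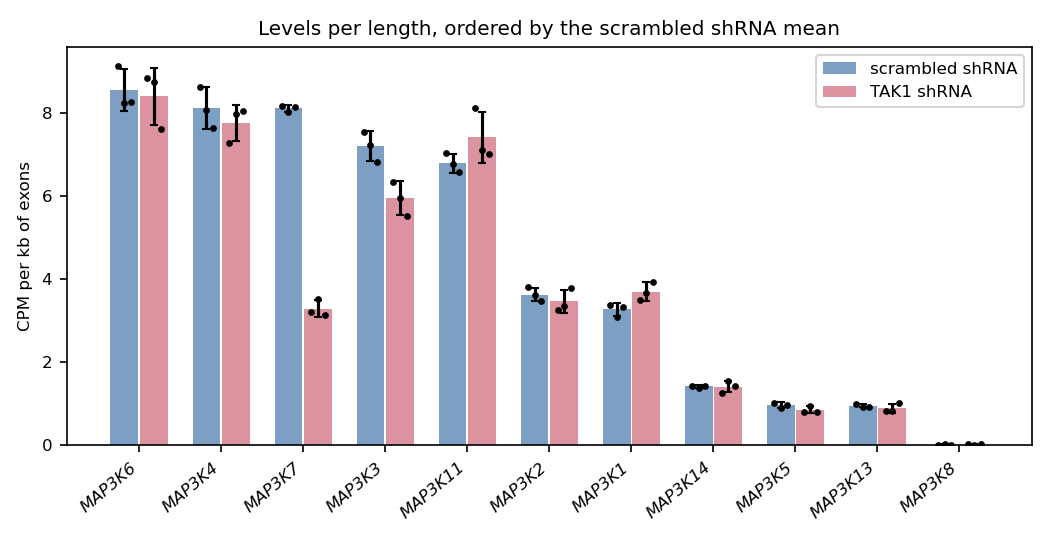
Level of MAP3K7 and the 10 members in CPM per kilobase of exons, in the order of the scrambled shRNA means, with bars for the mean, error bars for the SD (n = 3) and points for the samples. The bar of MAP3K7 drops from 8.11 to 3.29, and MAP3K8 is not visible above 0.

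The rest of the MAP3 kinase family was measured for comparison. Of 10 further genes, 9 were tested, and 4 were upregulated and 1 downregulated, where 11.8 and 11.3% of all genes tested were. These numbers were 2 and 1 without scrambled replicate 3, where MAP3K10 (0.27) and TAOK3 (0.29) were not called, 5 and 1 without TAK1 replicate 3, where MAP3K12 (0.30) was called, and 5 and 0 with scaling by library size alone. The median log2 fold change was 0.23, compared with 0.02 over all genes tested. MAP3K9, encoding the mixed-lineage kinase MLK1, stood at 45.3, 46.7 and 45.7 CPM with scrambled shRNA and at 71.6, 64.1 and 67.4 CPM with TAK1 shRNA. The groups were far apart, and the log2 fold change was 0.56 ± 0.0593 (SE), with an adjusted p of 5.44e-08 by edgeR. MAP3K10, encoding MLK2, had a log2 fold change of 0.36 (adjusted p = 0.00462 by edgeR), which was 0.27 with an adjusted p of 0.0545 without scrambled replicate 3. Among the TAO kinases, TAOK2 had a log2 fold change of 0.35 (adjusted p = 7.32e-06 by edgeR), and TAOK3 had one of 0.33 (adjusted p = 0.00903), which became 0.29 with an adjusted p of 0.0608 without scrambled replicate 3. TAOK1 was lower, with a log2 fold change of -0.29 (adjusted p = 0.000103 by edgeR), or -0.24 with scaling by library size alone, which ended its call. MAP3K12, encoding DLK, had a log2 fold change of 0.23 (adjusted p = 0.0282 by edgeR), under the fold threshold, and was called without TAK1 replicate 3 (0.30) and with library size alone (0.28). MAP3K20, MAP3K15 and MAP3K21 were not called, with log2 fold changes of 0.01, -0.03 and -0.40, the last from 12 to 21 counts per sample (-0.23 without scrambled replicate 1 and -0.60 without scrambled replicate 3), and MAP3K19 was not tested. The direction of MAP3K15 and MAP3K20 depended on single libraries. MAP3K15 was at -0.18 without TAK1 replicate 1 and 0.13 without TAK1 replicate 2, and MAP3K20 was at -0.04 without TAK1 replicate 3. Some of these genes also lie opposite exons of other genes. This covers 18.74% of the annotated exon length of MAP3K12 (PCBP2) and 16.43% of that of MAP3K15 (PDHA1). The part of PCBP2 and PDHA1 reads in their values was not tested. Whether the family members chosen here differ as a group from the rest of the family was not tested.

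Kinases and scaffolds that act with the members were also counted, to be read against the 11.8% of all genes tested that were upregulated and the 11.3% that were downregulated. Of 7 MAP4 kinase genes, whose products can activate MAP3 kinases, 3 were upregulated (MAP4K1, TNIK and MINK1, with log2 fold changes of 0.80, 0.34 and 0.33) and 1 downregulated (MAP4K4, -0.34). MAP4K1 stood near 1 CPM, and its adjusted p of 0.0306 by edgeR became 0.0985 without scrambled replicate 1, 0.0850 without scrambled replicate 3, 0.0846 without TAK1 replicate 2 and 0.123 without TAK1 replicate 3. Of 7 MAP2 kinase genes, whose products are substrates of the members, 3 were upregulated and 1 downregulated. MAP2K1, encoding MEK1, stood at 722, 733 and 730 CPM against 366, 362 and 352 CPM, a log2 fold change of -1.02. MAP2K5, encoding the substrate of MEKK2 and MEKK3, had a log2 fold change of 0.55, MAP2K7 had one of 0.39, and MAP2K4 had one of 0.28, which came under the threshold without TAK1 replicate 2 (0.23) or TAK1 replicate 3 (0.24). MAP2K6 had a log2 fold change of 0.56 with an adjusted p of 0.0512 by edgeR and was not called, and it depended on single libraries: it was 0.30 (adjusted p = 0.289) without scrambled replicate 1 and 0.94 (adjusted p = 0.00230) without scrambled replicate 3. It was called in 7 of 14 alternatives, among them the latter, the replicate block (0.61, adjusted p = 0.0130) and the fit without TAK1 replicate 2 (0.63, adjusted p = 0.0304).

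Of 14 MAP kinase genes, 12 were tested, and 2 were upregulated and 2 downregulated. MAPK15 had a log2 fold change of 1.14, and MAPK12 had one of 0.28, which was 0.23 without TAK1 replicate 1 and 0.21 without TAK1 replicate 2. MAPK11 had one of -0.48 (adjusted p = 0.0163 by edgeR, 0.0514 without scrambled replicate 2 and 0.0791 without scrambled replicate 3). MAPK8, not called in the main fit, was called downregulated without scrambled replicate 2 (-0.27), without TAK1 replicate 3 (-0.26) and with no filter (-0.25). Of 12 scaffold genes, 10 were tested, with 3 upregulated (MAPK8IP1, MAPK8IP3 and SH3RF1, with log2 fold changes of 0.53, 0.47 and 0.45) and 1 downregulated (SH3RF3, -0.26, which was -0.22 without scrambled replicate 1, -0.21 with library size alone and -0.24 with upper-quartile scaling). The number downregulated was 2 without TAK1 replicate 1, where ARRB1 (-0.27) was also called, and without TAK1 replicate 3, where SPAG9 (-0.26) was.

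Genes whose products bind or restrain the members were counted in the same way. Of 17 such regulators, 16 were tested, and 2 were upregulated and 5 downregulated (2 and 4 with library size alone), where 11.8 and 11.3% of all genes tested were, with a median log2 fold change of -0.12. TXN, encoding thioredoxin, which binds and inhibits ASK1, stood at 213, 216 and 209 CPM with scrambled shRNA and at 145, 143 and 146 CPM with TAK1 shRNA. The log2 fold change was -0.55 ± 0.0449 (SE), with an adjusted p of 6.1e-10 by edgeR, while MAP3K5 itself was not called. For the activators of MEKK4, the directions were mixed: GADD45A had a log2 fold change of -0.80, GADD45B had one of -0.36 and was not called (adjusted p = 0.0857 by edgeR), GADD45G had one of 0.59, and MAP3K4 was not called. PDCD10, a partner in the CCM complex that restrains MEKK3, had a log2 fold change of -0.42, whereas its partners CCM2 and KRIT1 were not called, with 95% intervals of -0.15 to 0.11 and -0.20 to 0.19. TRAF3, which directs NIK to degradation, had one of 0.28 (adjusted p = 0.000299 by edgeR), and the transcript of MAP3K14 itself stood at the same mean in both groups. These are transcript levels, and kinase protein and activity were not analysed here.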

How the data were processed

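Gene-level read counts for 6 samples were used as the authors deposited them. Per the submitters' processing notes and the study's methods, reads were base-called with CASAVA and aligned to GRCh38 with STAR; the counter, the annotation release and the use of strand are not given in the sources used here. Counts were filtered with filterByExpr, which left 15935 of 58735 genes, and scaled by the trimmed mean of M-values in edgeR. Groups were compared by edgeR's quasi-likelihood test (edgeR 4.0.16 in R 4.3.3) with Benjamini-Hochberg adjustment over all genes tested. Calls needed an adjusted p under 0.05 and a log2 fold change of 0.25 or more in either direction. Alternatives were DESeq2 1.42.0, limma-voom (limma 3.58.1), other scalings and filters, a replicate block, and leaving out each library. The code was tested on simulated data; its first pass rule, over all genes, was not met and was then limited to genes of at least 4 CPM.

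Gene coordinates, lengths and sequences were taken from GENCODE 44 by symbol, and all 10 members matched. The catalytic loop was located in the translated canonical coding sequence by its conserved pattern, found once in each kinase. Levels per kilobase used the union of annotated exons. The members and lists were chosen with earlier results of these data known. Every member, MAP3K7 and the rest of the family were named; from each other list of kinases, scaffolds or regulators, up to 3 called genes with the highest and up to 3 with the lowest log2 fold change at a mean of at least 1 CPM were named, and genes overlapping a member were named after their values were seen. Some genes that this rule covers are not reported here. IGF2, a marker on the list, was left out because more than 1 row had its symbol. Nothing in the labels says that the replicates came from separate cultures, so that p-values measure the spread between these samples, which may be technical.

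Depth ran from 28839898 to 34469323 counts per sample. Limits of detection cover counting error only.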

Additional observations from a re-analysis of the deposited data

How the results depend on the processing

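The number of members called upregulated was 0 under every alternative. The number called downregulated was 1, except that it was 0 with library size alone and at a fold threshold of 0.5, and ranged from 0 to 1 when single libraries were left out; in each case the estimate of MAP3K3 came inside the fold threshold. Its log2 fold change ranged from -0.33 to -0.23 over 14 alternatives, with adjusted p-values from 0.000248 to 0.0206, and MAP3K7 ranged from -1.36 to -1.25. No other tested member was called under any alternative. For MAP3K1 and MAP3K11 this rested on the fold threshold in some fits. With library size alone their adjusted p was 0.0191 and 0.0255 by edgeR, with log2 fold changes of 0.23 and 0.17. The count with no fold threshold was made on the main fit only. Over all genes, 735 were upregulated and 680 downregulated at a fold threshold of 0.5, and 2569 and 2734 with no fold threshold, as the thresholds themselves require. With library size alone, 2376 genes were upregulated and 1404 downregulated, so that 62.9% of calls were upward, compared with 51.0% of the 1879 and 1805 calls reported; the median of all genes moved by 0.05 (log2).

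The labels give both groups replicates 1 to 3, but same-numbered samples deviated together only weakly (correlations of 0.037, 0.036 and 0.016 across genes), so the numbers were not taken to pair the samples. Correlations between different numbers ran from -0.052 to 0.019. Scrambled replicate 3 correlated slightly better with TAK1 replicate 2 (0.019) than with its own number. With a replicate block, 1 member was downregulated and 0 were upregulated, and 1942 and 1848 of all genes were upregulated and downregulated. The block lowered the adjusted p by edgeR of MAP3K3 from 0.00243 to 0.000248, of MAP3K1 from 0.0646 to 0.0383 and of MAP3K11 from 0.109 to 0.0411. The estimates of MAP3K1 and MAP3K11 stayed under the fold threshold. Per kilobase of the longest transcript, the control levels of MAP3K11, MAP3K4, MAP3K6 and MAP3K3 were 12.8, 11.1, 10.6 and 9.14 in place of 6.79, 8.12, 8.54 and 7.20, and MAP3K7 was at 15.7 in place of 8.11. Depth limited MAP3K8, which the filter left out of the main fit and which was tested, and not called, only without a filter, and MAP3K5, whose interval was the widest of the tested members.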

Other observations

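MAP3K7CL, a gene on chromosome 21 named for its likeness to the C-terminal part of TAK1, belongs to no list used here and was chosen after its values were seen. It stood at 119, 130 and 138 CPM with scrambled shRNA and at 81.1, 98.2 and 92.6 CPM with TAK1 shRNA. The groups did not overlap, and the log2 fold change was -0.51 ± 0.0633 (SE), with an adjusted p of 6.87e-07 by edgeR.

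TMEM41A, which lies opposite MAP3K13, stood at 29.6, 31.8 and 30.7 CPM with scrambled shRNA and at 24.4, 26.0 and 26.7 CPM with TAK1 shRNA. Its groups did not overlap, with a log2 fold change of -0.26 (adjusted p = 0.00646 by edgeR). This call was lost without scrambled replicate 2 (-0.23), without TAK1 replicate 1 (-0.22), with upper-quartile scaling (-0.24) and with library size alone (-0.21). The part of TMEM41A reads in the values of MAP3K13 was not tested.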
